A study of Mus musculus with 12 samples.

Results

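The adult forebrain of Notch knockout mice that had been exposed to valproic acid before birth was compared, by RNA sequencing of bulk tissue, with that of knockout mice that had not. The members are the 6 knockout libraries among the 12 of the series, chosen by their labels, 3 from exposed and 3 from unexposed animals, and the comparison ran across all genes. Exposed knockout carried the genotype that the labels write as htr3a Notch KO together with prenatal valproic acid, and unexposed knockout carried the same genotype without it, so that the knockout is shared by both groups. The other 6 libraries, 3 of wildtype with and 3 of wildtype without the same exposure, are used to set the knockout response beside that of wildtype. Which Notch gene was deleted, what drove the deletion, when and at what dose the drug was given, and the animals' sex and exact age were not stated in the labels. Nor do they tie each library to its own animal, and the p-values measure only the spread between these libraries, which may be technical.

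Valproic acid is an antiepileptic drug that also inhibits histone deacetylases, and exposure of the rodent fetus to it is a widely used model of autism. Notch receptors are membrane proteins that are cut when a neighbouring cell presents a ligand, and the released fragment joins the DNA-binding protein Rbpj to switch on genes that keep neural progenitors from differentiating. Because RNA was taken from bulk tissue, a larger number of cells of a type and more RNA per cell cannot be told apart in any value below.

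Total counts were 18935991 to 22494104 in exposed knockout and 16887885 to 21840608 in unexposed knockout. Genes of the mitochondrial genome held 18.6%, 14.1% and 13.5% of the counts in exposed knockout replicates 1, 2 and 3, and 12.2% to 15.2% in unexposed knockout. Xist, which silences the second X chromosome in females, had 6 counts in exposed knockout replicate 3 and 5919 to 10767 in each of the other 5 libraries. With the deleted gene unnamed, the level of a Notch gene could not serve as a check of the genotype. Notch1 was at 17.6 to 21.7 CPM (a gene's counts scaled to the size of its library) in exposed knockout and 16.4 to 17.6 CPM in unexposed knockout, beside 15.2 to 20 CPM in the 6 wildtype libraries. The markers of forebrain neurons were present in all 6 libraries, with summed CPM of markers shared by striatal projection neurons of 2692 to 3001 in exposed and 2818 to 3684 in unexposed knockout.

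Prenatal valproic acid left few genes past the test in the knockout, and those that rose included a retinoid carrier of retina and pineal gland, an insulin-like growth factor binding protein and a monoamine transporter. Of 17995 tested genes 3 rose (0.0167%) and 7 fell (0.0389%) by edgeR's quasi-likelihood test at an adjusted p under 0.05, together 0.0556%. At an unadjusted p under 0.05 there were 1295 higher genes (7.2%) and 1394 lower genes (7.75%). The 3 that rose were Rbp3 on chromosome 14, Igfbp2 on chromosome 1 and Slc29a4 on chromosome 5. The 7 that fell were Spock3, Pde7b, Plppr5, Trim23, Arl15, Osbpl8 and Serpini1. Just outside, 22 genes shared an edgeR adjusted p of 0.0593, 12 of them higher and 10 lower, and at an adjusted p under 0.1 there were 68 higher and 108 lower genes. The count of 10 depended on the test and filter. By DESeq2's Wald test it was 193, with no count filter 391, with the 6 knockout libraries alone 38 and by limma-voom 3. It fell to 4 without unexposed knockout replicate 3, to 2 without exposed knockout replicate 1 and to 3 without exposed knockout replicate 2. It was 14 without both libraries that lack Xist, 1 in exposed knockout and 1 in exposed wildtype, a setting chosen after the data were seen, and 2 with a term for those libraries in the fit.

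**Figure D1:**
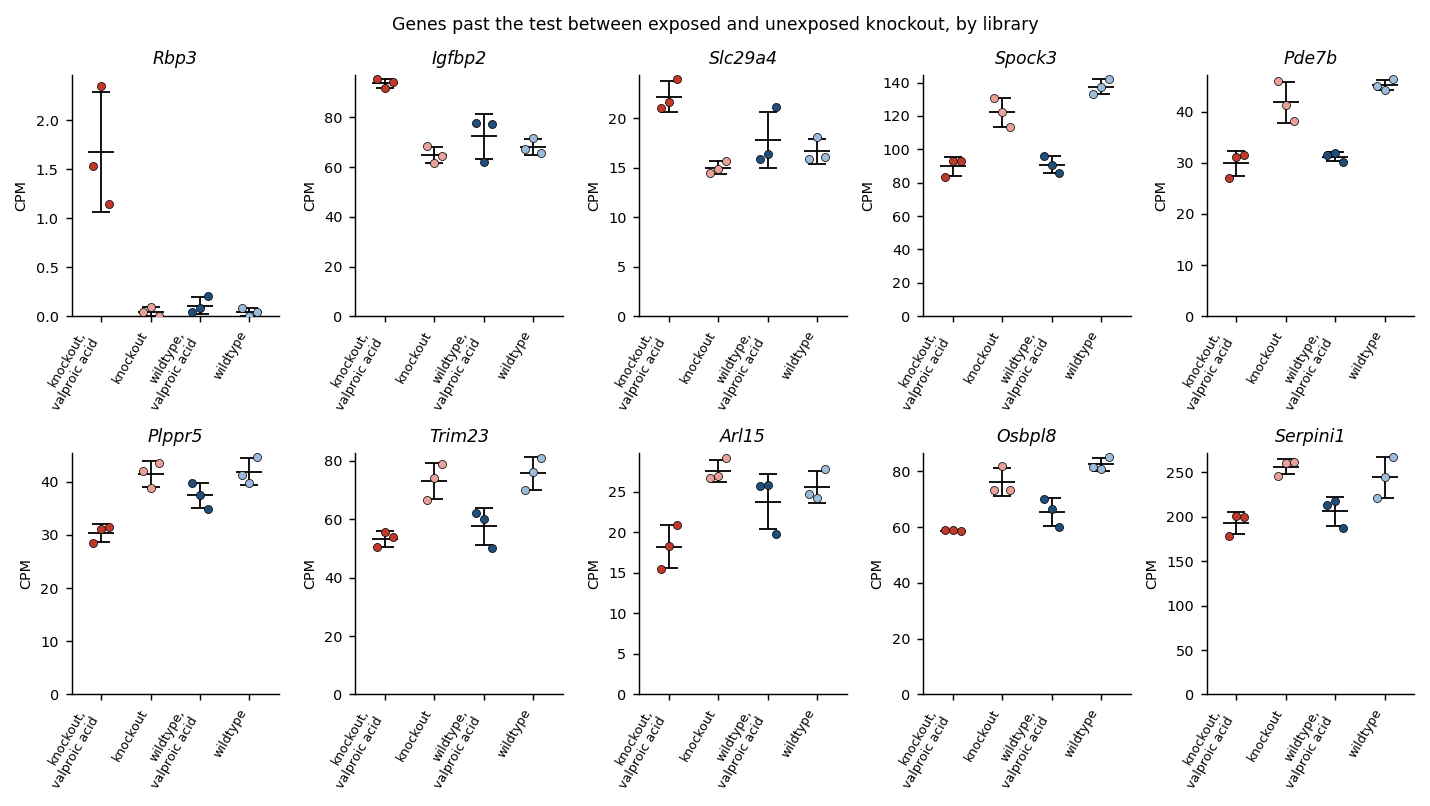
CPM of the 10 genes past the test in knockout, by library (points), with mean and SD of 3 libraries (bars), in exposed knockout, unexposed knockout, exposed wildtype and unexposed wildtype. In each panel the 3 exposed knockout points lie on one side of the 3 unexposed ones, and Rbp3 stands at 1.14 to 2.35 CPM in exposed knockout and at or below 0.204 CPM in the other 9 libraries.

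Rbp3 (ENSMUSG00000041534) encodes the interphotoreceptor retinoid-binding protein, which photoreceptors and pineal cells secrete. It had 27, 49 and 26 counts in exposed knockout replicates 1, 2 and 3, against 1, 2 and 0 counts in unexposed knockout. All 3 exposed libraries thus lay far above all 3 unexposed ones, at a low level in both. The ratio of the summed counts, 102 against 3, was 33.4 after scaling for library size, with a 95% counting interval of 11.1 to 165 that covers counting error only (edgeR adjusted p = 0.00177). In wildtype Rbp3 was at 0.0405, 0.0818 and 0.204 CPM in exposed and 0.0805, 0 and 0.0435 CPM in unexposed libraries, and the difference between genotypes had an unadjusted edgeR p of 0.0198 and an adjusted p of 0.833. Rbp3 passed the test under all 19 other settings that were run, with edgeR, DESeq2 or limma-voom adjusted p from 1.96e-08 to 0.0269. Most of those settings kept the same count filter, so they are no separate check of it. Rbp3 met that filter only through the exposed knockout libraries, where it was high. The adjusted p of 1.96e-08 came from the edgeR fit with no count filter, under which 391 genes passed.

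The wider list of pineal and retinal genes, photoreceptor-type proteins and enzymes of melatonin synthesis, showed which of these genes stood with Rbp3. Of 22 members 10 had enough counts to be tested, and Rbp3 alone passed. Rbp3 entered the test only through the exposed knockout libraries, and no count or median over the 10 is used here. Log2 fold changes of the other 9 lay between 0.09 for Rom1, a protein of photoreceptor discs, and 2.11 for Tph1. Tph1, the peripheral and pineal tryptophan hydroxylase that starts serotonin synthesis, had 27, 60 and 19 counts in exposed against 10, 7 and 7 in unexposed knockout, a ratio of 4.34 with a counting interval of 2.77 to 7.07. Its edgeR adjusted p was 0.0593. The transcription factor gene Otx2, which acts in retina, pineal gland and choroid plexus and is on both lists, was at 8.18, 8.97 and 9.10 CPM in exposed and 4.38, 6.08 and 6.93 CPM in unexposed knockout. The visual arrestin gene Sag was at 3.35, 2.83 and 3.47 CPM in exposed and 2.40, 2.30 and 1.73 CPM in unexposed knockout. Neither Otx2 (edgeR adjusted p = 0.205) nor Sag (0.198) passed.

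Of the 12 members that were not tested, 8 had more counts in exposed than in unexposed knockout, 3 had fewer (Rcvrn, Gnat1 and Cnga3) and 1 had none in either group. Their counts were 217 in all in exposed and 93 in unexposed knockout. More of the 217 lay in exposed knockout replicate 2 than in replicates 1 and 3 together, so the pooled excess rests largely on that library. Crx, the photoreceptor and pineal homeobox factor, had 0, 18 and 6 counts in exposed knockout and none in any unexposed knockout library. Prph2, a structural protein of photoreceptor discs, had 0, 11 and 3 counts in exposed and none in unexposed knockout. The phosphodiesterase subunit gene Pde6g had 7, 34 and 8 counts in exposed and 3, 6 and 0 in unexposed knockout. Exposed knockout replicate 2 thus held the most counts of Rbp3, Tph1, Crx, Prph2 and Pde6g. Rcvrn, the photoreceptor calcium sensor recoverin, went the other way without overlap, at 0, 3 and 3 counts in exposed and 5, 6 and 5 counts in unexposed knockout. The rod transducin gene Gnat1 had 2, 0 and 1 counts in exposed and 2, 2 and 1 in unexposed knockout, and the cone channel gene Cnga3 0, 1 and 3 counts in exposed and 3, 2 and 0 in unexposed knockout. The 2 enzymes that turn serotonin into melatonin overlapped between the groups, with Aanat at 0.625, 0.959 and 0.616 CPM in exposed and 0.424, 0.631 and 0.717 CPM in unexposed knockout, and Asmt at 4, 11 and 4 counts in exposed and 2, 11 and 4 counts in unexposed knockout. What part the amount of any neighbouring tissue in the samples had in these values was not tested.

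The bases just upstream of Rbp3 and Sag are shown because both genes are of the photoreceptor and pineal type and both windows hold the core bound by Otx2 and Crx. The windows are the 120 bases before the RefSeq start on GRCm38.p6, on the plus strand, at chr14:33953883-33954002 for Rbp3 and chr1:87803560-87803679 for Sag. Capitals mark TAATCC or its reverse complement GGATTA, searched on both strands.
Rbp3: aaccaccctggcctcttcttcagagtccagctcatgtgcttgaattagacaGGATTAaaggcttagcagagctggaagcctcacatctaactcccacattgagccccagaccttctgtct
Sag: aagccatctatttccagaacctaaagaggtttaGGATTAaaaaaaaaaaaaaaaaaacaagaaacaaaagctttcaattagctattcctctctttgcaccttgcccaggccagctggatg
The match starts 69 bases before the start of Rbp3 and 87 bases before that of Sag. A window of this length holds the motif in 763 of 27025 mouse promoters, or 2.8%. Within 250 bases it was present in 6.4% of all promoters and in 0 of 13 matched choroid plexus genes. Cngb1 of the pineal and retinal list also held it within 250 bases. No share over that list is used, since Rbp3 entered the test only through the exposed knockout libraries. Of the 7 genes that fell, Pde7b held it. A match describes these letters and is not evidence of binding.

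Igfbp2 (ENSMUSG00000039323) encodes a secreted binding protein for insulin-like growth factors. It was at 95.4, 91.7 and 94.1 CPM in exposed and 68.4, 61.7 and 64.6 CPM in unexposed knockout, with a gap between the groups wider than the spread within either. The log2 fold change was 0.53 ± 0.08 SE (edgeR adjusted p = 0.00384). In wildtype, exposed libraries were at 77.6, 62.0 and 77.4 CPM and unexposed ones at 67.2, 71.6 and 65.6 CPM, which overlap. The log2 fold change in knockout minus that in wildtype was 0.44 ± 0.11 SE. Its edgeR p was 0.000457 unadjusted and 0.833 adjusted. Igfbp2 passed with each of the 6 libraries left out. It was the 1 member of 16 tested genes of the insulin-like growth factor axis past the test. Igf2, a ligand of meninges and choroid plexus, was at 1.65, 1.77 and 2.55 CPM in exposed and 1.18, 1.35 and 1.26 CPM in unexposed knockout (edgeR adjusted p = 0.315).

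Slc29a4 (ENSMUSG00000050822) encodes the plasma membrane monoamine transporter, a low-affinity carrier of serotonin and dopamine that choroid plexus and neurons express. It was at 21.0, 21.7 and 24.0 CPM in exposed and 14.5, 14.9 and 15.7 CPM in unexposed knockout. The groups did not overlap, and the log2 fold change was 0.57 ± 0.11 SE (edgeR adjusted p = 0.0429). It no longer passed when any 1 of the 6 libraries was left out, with adjusted p of 0.0656 to 0.164. Among 11 tested genes of organic cation and monoamine transport it alone passed. The organic cation transporter gene Slc22a2 had 26, 24 and 34 counts in exposed and 14, 13 and 14 in unexposed knockout, a ratio of 2.01 with a counting interval of 1.37 to 3.0. In wildtype Slc22a2 had the opposite sign (log2 -0.84), with an unadjusted edgeR p for the difference of 0.000328 and an adjusted p of 0.833. Monoamine oxidase A was at 36.8, 35.2 and 33.4 CPM in exposed and 40, 41.6 and 41 CPM in unexposed knockout (edgeR adjusted p = 0.199).

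Igfbp2 and Slc29a4 also share a base composition, and their upstream bases are shown for that reason, with the GC box core GGGCGG in capitals. The windows are again 120 bases before the RefSeq start on GRCm38.p6, plus strand, at chr1:72824360-72824479 for Igfbp2 and chr5:142701981-142702100 for Slc29a4.
Igfbp2: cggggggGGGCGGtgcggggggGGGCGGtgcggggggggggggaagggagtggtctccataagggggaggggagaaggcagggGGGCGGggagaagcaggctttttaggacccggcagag
Slc29a4: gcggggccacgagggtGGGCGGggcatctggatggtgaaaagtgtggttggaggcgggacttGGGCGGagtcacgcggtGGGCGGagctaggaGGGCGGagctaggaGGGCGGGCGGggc
The core, searched on both strands, occurred 3 times before Igfbp2 and 6 times before Slc29a4, where the last pair overlaps. A window of this length holds it in 26.9% of 27025 promoters. Within 250 bases it was present in 2 of the 3 genes that rose, in 3 of the 7 that fell and in 32.9% of all promoters. By their longest transcript, the 3 genes that rose are 55.7% to 62.1% G and C, and the 7 that fell are 37.2% to 43.5%.

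That split ran through the whole comparison. When genes whose mean reached 5 CPM were sorted into 10 bins by the GC content of the longest transcript, the median log2 fold change was -0.16 in the lowest bin and 0.12 in the highest. In the lowest bin 13.8% of genes had positive values, against 85.5% in the highest. In wildtype the same medians were -0.06 in the lowest and 0.03 in the highest bin. Within single libraries the correlation of a gene's deviation from its mean with GC content, over 12301 genes that share the library, was 0.18, 0.31 and 0.42 in exposed and 0.02, -0.32 and -0.41 in unexposed knockout. No exposed knockout library overlapped an unexposed one in this measure. With an offset for GC content fitted to each library, a setting chosen after the data were seen, Rbp3 alone passed (edgeR adjusted p = 0.00378). Igfbp2 had a log2 fold change of 0.39 with an adjusted p of 0.176 under that offset, and Slc29a4 one of 0.44 with an adjusted p of 0.214. What sets the gradient was not tested.

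**Figure D2:**
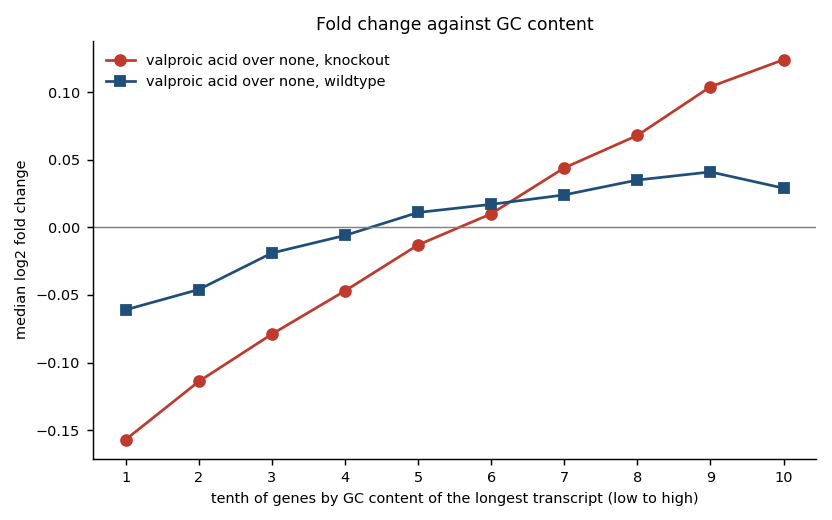
Median log2 fold change (y axis) of genes sorted into 10 bins by GC content (x axis, low to high) for exposed against unexposed knockout (red circles) and exposed against unexposed wildtype (blue squares). The knockout medians climb from -0.157 to 0.124 over the bins, and the wildtype medians span -0.061 to 0.041.

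Markers of the choroid plexus, the epithelium that secretes the cerebrospinal fluid, stood higher in exposed knockout as a list, although none passed the test. All 18 were tested and all 18 had positive log2 fold changes, with a median of 0.60, against 0.009 over all tested genes, of which 51.8% were positive. In 16 of the 18 the exposed libraries lay wholly above the unexposed ones, against 9.88% of all tested genes, and 16 had an unadjusted p under 0.05, against 7.2%. Members of this and the other lists were chosen with earlier results of these data known, and markers of a tissue can vary together. These shares are therefore a description and not a test. The mean log2 CPM of the list was 4.57, 4.74 and 4.51 in exposed knockout and 3.98, 3.95 and 3.98 in unexposed knockout. The median with any 1 library left out was 0.56 to 0.66, and 0.64 with the offset for GC content. The list's median GC content was 46.9%, below that of all tested genes (49.7%).

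The carrier and barrier proteins of this epithelium gave similar values. Ttr, the thyroxine and retinol carrier transthyretin, was at 2776, 2929 and 2426 CPM in exposed and 1853, 1700 and 1820 CPM in unexposed knockout. Cldn2, a tight junction protein that forms cation channels, was at 11.8, 12.9 and 12.8 CPM in exposed and 7.3, 6.4 and 7.59 CPM in unexposed knockout. Neither group overlapped the other for either gene. Cldn2 had a log2 fold change of 0.83 ± 0.18 SE and Ttr one of 0.60 ± 0.24 SE, with edgeR adjusted p of 0.0593 and 0.304. Steap1, a metalloreductase, had the largest value of the list, a log2 fold change of 1.07 ± 0.23 SE (edgeR adjusted p = 0.0593), and was at 5.85, 5.27 and 5.01 CPM in exposed and 2.69, 2.43 and 2.57 CPM in unexposed knockout. The water channel gene Aqp1 was at 14.9, 14.2 and 18.0 CPM in exposed and 10.5, 7.93 and 10.2 CPM in unexposed knockout, and the folate receptor gene Folr1 at 17.8, 20.2 and 20.6 CPM and 11.9, 11.5 and 12 CPM in the same groups. The prolactin receptor gene Prlr varied more, at 19.8, 32.6 and 17.1 CPM in exposed and 13.6, 11.9 and 8.61 CPM in unexposed knockout. Calml4 and Kcne2 were the members whose groups overlapped. Mfrp, a membrane protein of retinal pigment epithelium and ciliary body that is outside the list, was at 16.1, 19 and 15.1 CPM in exposed and 9.09, 9.10 and 8.31 CPM in unexposed knockout (edgeR adjusted p = 0.0593).

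In wildtype the median over these 18 genes was 0.03, with 10 positive (51.5% of all tested genes were) and 0 with exposed libraries wholly above unexposed ones (9.84%). Their mean log2 CPM was 3.93, 3.51 and 4.31 in exposed and 3.66, 4.13 and 3.92 in unexposed wildtype, so those groups overlapped and varied more than either knockout group. All 18 had a larger fold change in knockout than in wildtype, as 50.5% of all tested genes did, and 6 had an unadjusted p under 0.05 for that difference, where 3.15% of all tested genes had one in that direction. The smallest of these p belonged to Cldn2, with a log2 difference of 1.12 ± 0.25 SE. Its edgeR p was 0.000191 unadjusted and 0.833 adjusted, and none passed after adjustment. How much choroid plexus each piece of tissue held was not measured separately, and its part in these values was not tested.

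**Figure D3:**
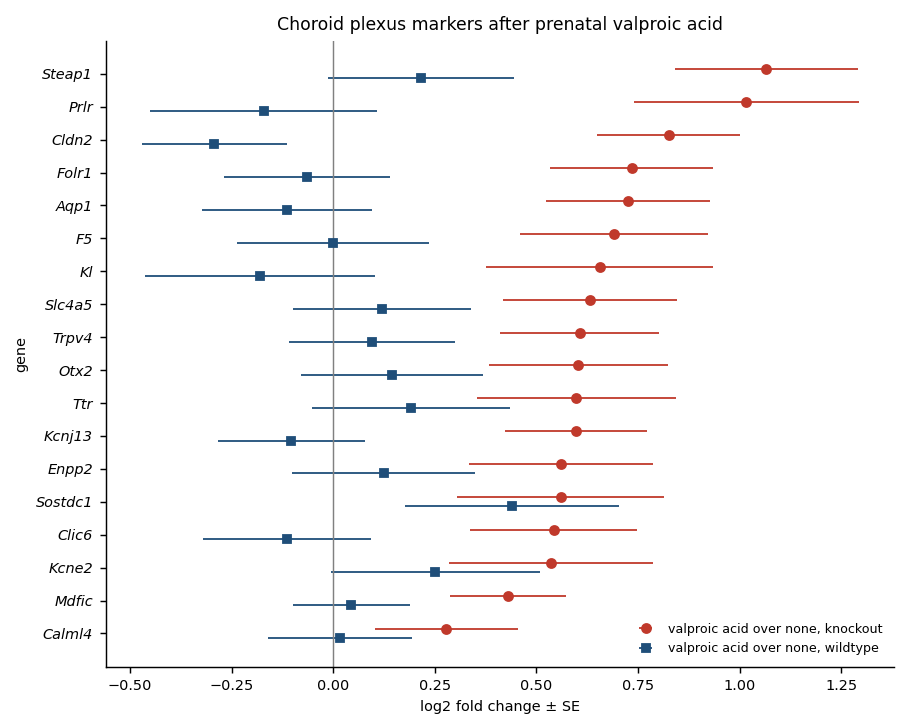
Log2 fold change with SE of the 18 choroid plexus markers for exposed against unexposed knockout (red circles) and exposed against unexposed wildtype (blue squares). All 18 knockout values lie right of 0, from 0.28 for Calml4 to 1.07 for Steap1, while the wildtype values lie on both sides.

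Markers of other lining tissues of the brain also had mostly positive, smaller values. Of 21 meningeal fibroblast markers 20 had positive log2 fold changes (median 0.34), 11 had exposed libraries wholly above unexposed ones, against 9.88% of all tested genes, and 0 passed the test. Those with the smallest p were 4 transporter genes and an enzyme gene. The organic anion transporter gene Slc22a6 was at 13.4, 11.4 and 12.4 CPM in exposed and 9.23, 6.80 and 7.23 CPM in unexposed knockout (log2 0.67 ± 0.17 SE, edgeR adjusted p = 0.0861). Aldh1a2, which makes retinoic acid, was at 19.9, 15 and 15.1 CPM in exposed and 11.8, 6.85 and 11.1 CPM in unexposed knockout (edgeR adjusted p = 0.106). The fibroblast collagen genes Col1a1, Col1a2 and Col3a1 had smaller log2 fold changes of 0.29, 0.42 and 0.11. The list's median in wildtype was 0.15, with 16 of 21 positive.

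Of 23 tested genes of ependyma and motile cilia 16 had positive values, against 51.8% of all tested genes (median 0.30), and 4 lay wholly above, against 9.88%. The median was 0.16 without exposed knockout replicate 1. The cilia gene Cfap65 was at 9.83, 8.82 and 8.66 CPM in exposed and 5.65, 5.45 and 6.4 CPM in unexposed knockout (log2 0.64 ± 0.14 SE, edgeR adjusted p = 0.0593). Foxj1, the master factor of motile cilia, overlapped between the groups, at 14.7, 14.2 and 15.2 CPM in exposed and 12.5, 9.19 and 14.2 CPM in unexposed knockout. Of 40 extracellular matrix genes 38 had positive values (median 0.20) and 10 lay wholly above (9.88% of all tested genes did), with the laminin chain gene Lama5 nearest to the threshold (log2 0.63 ± 0.14 SE, edgeR adjusted p = 0.0593). With the offset for GC content that list had 36 positive values and a median of 0.15, and Lama5 had an edgeR adjusted p of 0.317. The 14 tested mural cell markers had a median of 0.19, and one of 0.10 with the offset for GC content. Of the 17 endothelial markers 8 were positive and 9 negative, with the angiopoietin receptor gene Tek at 5.28, 4.75 and 4.13 CPM in exposed and 9.94, 7.79 and 8.07 CPM in unexposed knockout (edgeR adjusted p = 0.128).

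**Figure D4:**
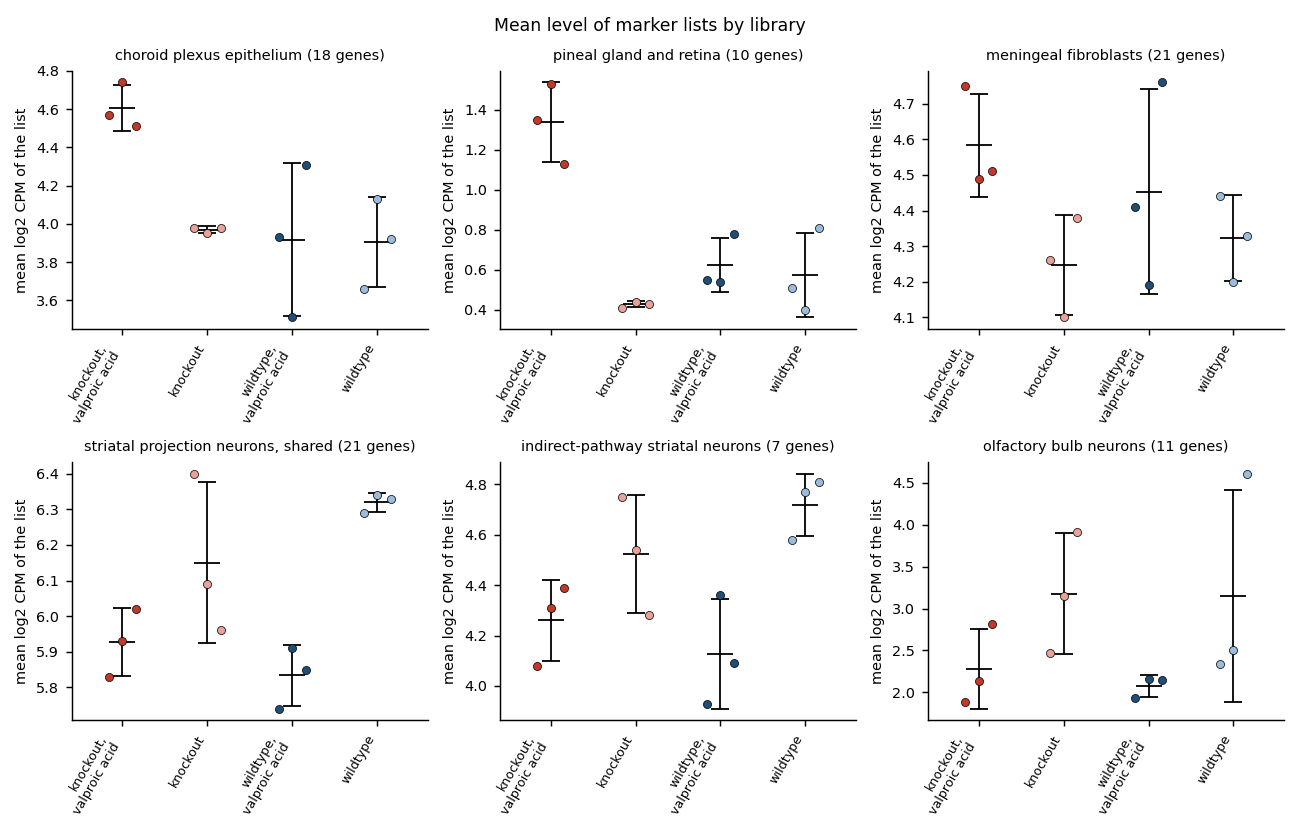
Mean log2 CPM of 6 marker lists by library (points), with mean and SD of 3 libraries (bars), in exposed knockout, unexposed knockout, exposed wildtype and unexposed wildtype; each axis has its own range and does not start at 0. Choroid plexus markers lie at 4.51 to 4.74 in exposed and 3.95 to 3.98 in unexposed knockout, while for the striatal list unexposed knockout replicate 1 stands above the other knockout libraries at 6.4.

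The 7 genes that fell have varied roles, from a brain proteoglycan to enzymes and small GTPases, and each was lower in all 3 exposed libraries than in all 3 unexposed ones. Spock3 (ENSMUSG00000054162), a secreted proteoglycan of the testican family, was at 83.4, 92.9 and 93.1 CPM in exposed and 131, 122 and 114 CPM in unexposed knockout (log2 -0.44 ± 0.07 SE, edgeR adjusted p = 0.00838). Pde7b (ENSMUSG00000019990), a cyclic AMP phosphodiesterase abundant in striatum, was at 27.1, 31.2 and 31.5 CPM in exposed and 46.0, 41.2 and 38.1 CPM in unexposed knockout (log2 -0.48 ± 0.08 SE, edgeR adjusted p = 0.0194). Exposed knockout replicate 1 was the lowest of the exposed libraries for both genes, and unexposed knockout replicate 1 the highest of the unexposed ones.

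Arl15 (ENSMUSG00000042348), a small GTPase related to the ADP-ribosylation factors, had the largest fall, with 15.5, 18.3 and 20.8 CPM in exposed and 26.7, 27.0 and 29.1 CPM in unexposed knockout (log2 -0.59 ± 0.11 SE, edgeR adjusted p = 0.0369). Serpini1 (ENSMUSG00000027834), neuroserpin, an inhibitor of tissue plasminogen activator, was at 178, 201 and 199 CPM in exposed and 246, 261 and 261 CPM in unexposed knockout (log2 -0.41 ± 0.08 SE, edgeR adjusted p = 0.0441). For both genes the gap between the groups was wider than the spread within either. Plppr5 (ENSMUSG00000033342), a neuronal membrane protein related to lipid phosphatases, fell by 0.45 on the log2 scale. The ubiquitin ligase gene Trim23 (ENSMUSG00000021712) fell by 0.46 and the lipid transfer protein gene Osbpl8 (ENSMUSG00000020189) by 0.38, with edgeR adjusted p of 0.0312, 0.0369 and 0.0369 for these 3 genes.

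How firmly these calls stood differed between genes. The fits compared here kept the genes that met the count filter over all 12 libraries. Rbp3 met it only through exposed knockout, so its calls below are no separate check of that filter. With 1 library left out in turn, Rbp3 and Igfbp2 passed in 6 of 6 fits and Spock3 in 5 of 6, losing its call without exposed knockout replicate 1 (edgeR adjusted p = 0.102). Pde7b passed in 2 of 6, without unexposed knockout replicate 3 and without exposed knockout replicate 3, and had adjusted p up to 0.151 in the others. Plppr5, Trim23, Arl15 and Osbpl8 each passed in 1 of 6, and Slc29a4 and Serpini1 in 0 of 6, with adjusted p of up to 0.226. No fold change changed sign in these fits. Their log2 values ranged from -0.54 to -0.41 for Pde7b and from -0.70 to -0.50 for Arl15. With the offset for GC content, chosen after the data were seen, Rbp3 alone kept its call. Igfbp2 then had an edgeR adjusted p of 0.176. Each gene that fell had a smaller fall under that offset. Spock3 was at log2 -0.30 (edgeR adjusted p = 0.312) and Serpini1 at -0.26 (0.336).

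Markers of striatal projection neurons, the output cells of the striatum, were mostly lower in exposed knockout. Of 21 markers shared by both output pathways 19 had negative log2 fold changes, as 48.2% of all tested genes did (median -0.24), 7 lay wholly below the unexposed libraries, against 10.3% of all tested genes, and Pde7b fell. Of the 10 markers of the direct pathway 9 were negative (median -0.26), and of the 7 tested markers of the indirect pathway all 7 were (median -0.26), with 0 past the test in either list. In the direct list 5 lay wholly below (10.3% of all tested genes) and 1 wholly above (9.88%). In the indirect list 1 of 7 lay wholly below. Tac1, the substance P precursor of direct-pathway cells, was at 50.7, 48.8 and 52.6 CPM in exposed and 81.5, 68.7 and 64.6 CPM in unexposed knockout (log2 -0.50 ± 0.10 SE, edgeR adjusted p = 0.0593). The gene of the D1 dopamine receptor, Drd1, was at 26.8, 32.4 and 32.5 CPM in exposed and 51.4, 39.9 and 34.9 CPM in unexposed knockout (edgeR adjusted p = 0.0918). Penk, the enkephalin precursor of indirect-pathway cells, overlapped between the groups, at 143, 179 and 171 CPM in exposed and 291, 192 and 173 CPM in unexposed knockout.

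Among the knockout libraries, unexposed knockout replicate 1 stood above the others for all 3 of these genes and for the lists. The mean log2 CPM of the shared markers was 5.83, 5.93 and 6.02 in exposed and 6.4, 6.09 and 5.96 in unexposed knockout. Without unexposed knockout replicate 1 the median log2 fold change of the shared list was -0.08, and that of the direct-pathway list was -0.16. The median of the indirect-pathway list was -0.15 without unexposed knockout replicate 1 and -0.14 without exposed knockout replicate 1. With the offset for GC content the 3 medians were -0.27, -0.24 and -0.38, with 21 of 21 shared markers negative.

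The same lists had larger negative values in wildtype. The shared markers had a median log2 fold change of -0.53 there. Of these 21 markers 10 fell past the test, against 0.689% of all tested genes. The direct and indirect lists had medians of -0.47 and -0.64, with 3 and 0 genes that fell past the test. Of the 21 shared markers 7 had an unadjusted p under 0.05 for a less negative value in knockout than in wildtype, against 3.15% of all tested genes, and 0 passed after adjustment. Rxrg, a retinoid receptor of the striatum, differed the most of these. It was at 29.5, 29.9 and 34.0 CPM in exposed and 37.9, 28.5 and 32.5 CPM in unexposed knockout, which overlap, and at 26.3, 26.4 and 27.8 CPM in exposed and 42.4, 42.9 and 39.2 CPM in unexposed wildtype. The difference between genotypes was 0.55 ± 0.13 SE on the log2 scale. Its edgeR p was 0.000297 unadjusted and 0.833 adjusted.

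Deep-layer cortical markers were lower too, with 12 of 15 negative (median -0.23; 48.2% of all tested genes were negative), 8 wholly below (10.3%) and 0 past the test. Without unexposed knockout replicate 1 that median was -0.15. Foxp2, a transcription factor of deep layers and striatum linked to vocal behaviour, was at 9.94, 11.4 and 12.7 CPM in exposed and 18.1, 15.9 and 14.3 CPM in unexposed knockout (log2 -0.51 ± 0.12 SE, edgeR adjusted p = 0.0627). Bcl11b, which specifies subcortically projecting neurons, was at 66.7, 69.7 and 75.7 CPM in exposed and 86.9, 86.2 and 87.8 CPM in unexposed knockout (edgeR adjusted p = 0.0627). Both sets of values were fully separated. Of 12 upper-layer markers 9 were negative (median -0.06), but with the offset for GC content 7 were positive (median 0.01), and without unexposed knockout replicate 1 the list split evenly into 6 and 6. Of 23 interneuron markers 18 were negative (median -0.12). That median was -0.07 without unexposed knockout replicate 1 and -0.18 without exposed knockout replicate 2 or exposed knockout replicate 3. Gad1, which makes GABA, was at 145, 170 and 187 CPM in exposed and 222, 223 and 242 CPM in unexposed knockout (edgeR adjusted p = 0.19). Olfactory bulb markers were negative in 11 of 11 (median -0.88), but their level followed single libraries, with Cdhr1 of mitral cells at 5.63, 6.19 and 8.66 CPM in exposed and 4.76, 9.19 and 24.7 CPM in unexposed knockout. Without unexposed knockout replicate 3 that median was -0.38.

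The genes that missed the threshold most narrowly are described next, a few of those named by the rule in each direction, and none of them passed. On the higher side Slc25a18, a mitochondrial glutamate carrier, was at 122, 109 and 117 CPM in exposed and 98.3, 91.1 and 82.9 CPM in unexposed knockout (log2 0.35 ± 0.07 SE, edgeR adjusted p = 0.0593). Slc7a10, which carries D-serine and glycine, was at 46.1, 46 and 45.8 CPM in exposed and 36.8, 35.3 and 30.5 CPM in unexposed knockout. Abcc8, the sulfonylurea receptor subunit of potassium channels, was at 19.9, 21.1 and 21.6 CPM in exposed and 14.7, 16.2 and 11.5 CPM in unexposed knockout. None of these groups overlapped, and the last pair of genes shared the adjusted p of 0.0593.

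On the lower side Foxp1, a transcription factor of striatum and cortex, was at 49.6, 55.6 and 52.5 CPM in exposed and 75.7, 63 and 63.5 CPM in unexposed knockout (log2 -0.36 ± 0.08 SE, edgeR adjusted p = 0.0593). Synpr, the synaptic vesicle protein synaptoporin, was at 119, 132 and 138 CPM in exposed and 157, 170 and 189 CPM in unexposed knockout. Micu3, a regulator of mitochondrial calcium uptake, was at 66.4, 67.3 and 68.2 CPM in exposed and 78.6, 86.2 and 91.4 CPM in unexposed knockout. The groups were separate for all 3 genes.

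Inhibitory synapse genes were mostly lower and excitatory ones were mixed. Of 19 tested genes of GABA receptors and chloride transport 13 were negative (median -0.18; 48.2% of all tested genes were negative), 9 lay wholly below (10.3%) and 0 passed. Without unexposed knockout replicate 2 the median was -0.12, and without exposed knockout replicate 2 it was -0.10. The receptor subunit gene Gabra5 was at 47.7, 47.4 and 52.4 CPM in exposed and 56.5, 62.9 and 67.6 CPM in unexposed knockout, with no overlap (edgeR adjusted p = 0.0846). This list has a median GC content of 44%, and with the offset for GC content its median was -0.08. Of 38 glutamate receptor and postsynaptic genes 21 were positive and 17 negative, and with the offset for GC content 18 and 20. Among them the receptor gene Grin2d had the highest log2 fold change (0.51), without overlap and with an edgeR adjusted p of 0.0593. With the offset for GC content Grin2d was at log2 0.37 (edgeR adjusted p = 0.336). The scaffold genes Shank1 (log2 0.30) and Dlgap3 (0.27) were also higher. The receptor genes Grm5 (-0.29) and Grik2 (-0.26) were lower. Shank1, Dlgap3, Grm5 and Grik2 did not overlap between the groups and had edgeR adjusted p of 0.0806 to 0.137.

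The Notch pathway and the histone deacetylases, a class that includes targets of the drug, held no gene past the test. Of 25 Notch receptors, ligands and modifiers 21 had positive log2 fold changes (median 0.13), 6 lay wholly above (9.88% of all tested genes did) and 0 passed. The median was 0.08 with the offset for GC content, the list being 54.4% G and C at its median, and 0.075 without exposed knockout replicate 3. Notch2 was at 27.2, 23.5 and 31.0 CPM in exposed and 20.5, 23.4 and 22.8 CPM in unexposed knockout, and the ligand gene Jag2 at 39.4, 39.0 and 42.3 CPM in exposed and 32.2, 38.2 and 30.3 CPM in unexposed knockout (edgeR adjusted p = 0.261 and 0.175). Of 14 tested Notch target genes 9 were positive, though 7 of 14 were without unexposed knockout replicate 2, exposed knockout replicate 1 or exposed knockout replicate 2, and the feedback inhibitor gene Nrarp had the smallest p (log2 0.44, edgeR adjusted p = 0.172). Of 17 histone deacetylase genes 12 were positive, with a median of 0.05, and of 0.03 without exposed knockout replicate 1. Hdac6, a cytoplasmic tubulin deacetylase, was at 44.3, 42.2 and 45.5 CPM in exposed and 36.1, 37.9 and 31.9 CPM in unexposed knockout (edgeR adjusted p = 0.0806), and Hdac2, a nuclear enzyme, at 50.6, 57.0 and 58.5 CPM in exposed and 64.6, 62.5 and 65.0 CPM in unexposed knockout (0.188). Htr3a, the serotonin receptor gene that the genotype label names, overlapped between the groups at 10.9, 10.3 and 9.94 CPM in exposed and 9.42, 10.4 and 10.6 CPM in unexposed knockout.

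No gene of the glial, ribosomal and mitochondrial lists passed the test. Of 18 astrocyte markers 17 were positive (median 0.14), and the median was 0.09 without unexposed knockout replicate 2 and 0.04 without exposed knockout replicate 1. Gfap, the astrocyte intermediate filament, was at 447, 446 and 420 CPM in exposed and 364, 341 and 399 CPM in unexposed knockout (log2 0.25 ± 0.08 SE, edgeR adjusted p = 0.153). Of 78 cytosolic ribosomal protein genes, whose reads can be shared with pseudogene copies, 72 were positive (median 0.10) and 22 lay wholly above (9.88% of all tested genes did), while in wildtype the median was -0.11 with 17 positive. Without exposed knockout replicate 1 the knockout median was 0.05. All 13 protein-coding genes of the mitochondrial genome were positive (median 0.22), with a summed level of 162500, 115300 and 111000 CPM in exposed and 96390, 119600 and 121500 CPM in unexposed knockout. Without exposed knockout replicate 1, the library with the highest share of mitochondrial counts, 6 of the 13 were positive. Without unexposed knockout replicate 1 the median was 0.12, and with the offset for GC content it was 0.36. Of the 20 markers of oligodendrocytes 10 were positive and 10 negative. The 20 of microglia had a median of 0.13, and of 0.06 with the offset for GC content.

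The 161 genes past the test between exposed and unexposed wildtype (0.895% of those tested) were then followed in knockout. The contrasts share no library, but the count filter, the scaling and the estimates of spread came from all 12 libraries, so the set is not independent of the knockout data. Of the 124 that fell in wildtype (0.689%), 120 had negative values in knockout (48.2% of all tested genes did), 74 lay wholly below there (10.3%), and 4 also fell in knockout (Spock3, Pde7b, Trim23 and Osbpl8). Their median log2 fold change was -0.21 in knockout and -0.40 in wildtype, and 114 were negative in knockout with the offset for GC content. Of the 37 that rose in wildtype (0.206%), 34 had positive values in knockout (51.8% of all tested genes did), 18 lay wholly above (9.88%) and 0 passed, with a median of 0.16 in knockout and 0.36 in wildtype. Of the genes past the test in knockout, all 7 that fell had negative values in wildtype, 6 of them at an unadjusted p under 0.05 (7.61% of all tested genes). Of the 3 that rose, all had positive values in wildtype and 0 an unadjusted p under 0.05 (6.55%). Since wildtype values chose the set of 161, its larger medians in wildtype are no finding. Over the 15307 genes whose mean reached 1 CPM, the fold changes in knockout and wildtype had a Pearson r of 0.37 and a Spearman rho of 0.39, given as a description since genes are not independent.

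**Figure D5:**
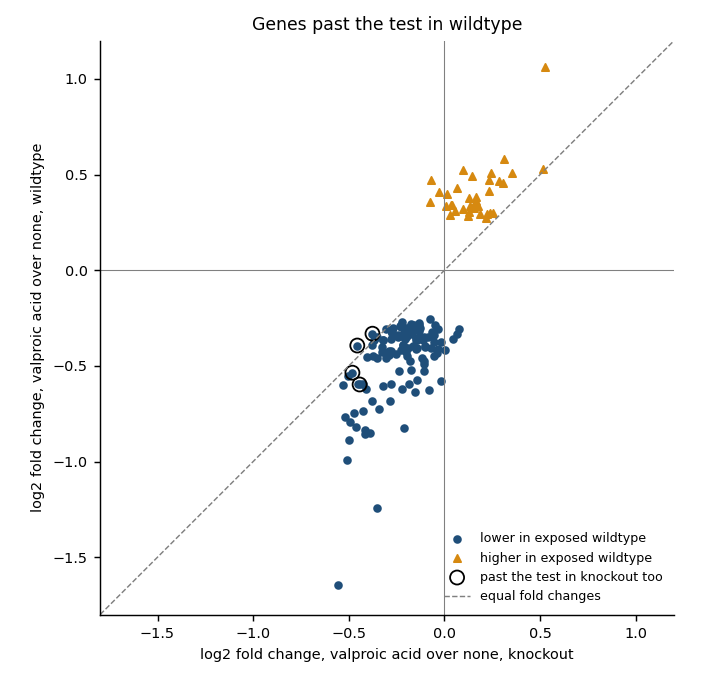
Log2 fold changes in knockout (x axis) and wildtype (y axis) of the genes past the test in wildtype, lower (blue circles) or higher (orange triangles) there, with a black ring around the 4 that also passed in knockout and a dashed line of equal values. Of the 124 lower genes 120 lie left of 0, and 1 gene without a symbol with a wildtype value of 3.77 lies beyond the axis and is not drawn.

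No gene passed the test of a different response in knockout than in wildtype. By edgeR 0 of 17995 genes passed, as by DESeq2 and limma-voom, and 1075 (5.97%) had an unadjusted edgeR p under 0.05. The count was 1 without unexposed knockout replicate 1 and 1 without exposed knockout replicate 1. Genes that fell in knockout differed in how near their wildtype values were. Spock3 was at 96.2, 90.7 and 85.6 CPM in exposed and 133, 138 and 142 CPM in unexposed wildtype, a log2 fold change of -0.60 beside -0.44 in knockout. Arl15 was at 25.7, 25.8 and 19.8 CPM in exposed and 24.7, 24.3 and 27.9 CPM in unexposed wildtype, which overlap. Its difference between genotypes was -0.49 ± 0.15 SE on the log2 scale, with an edgeR p of 0.00402 unadjusted and 0.833 adjusted.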

How the data were processed

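The authors deposited raw read counts per Ensembl gene for 56748 genes. Per the submitters' processing notes HISAT2 and the mouse build GRCm39 (mm39) were used, and per the labels' protocols ribosomal RNA was depleted; the sources used here name no counting program, annotation or strand setting. Reads of overlapping, antisense or near-identical genes may therefore be shared. Symbols came from a GRCm38 annotation (52125 identifiers, 99.53% of counts).

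Counts were fitted in R 4.3.3 with edgeR 4.0.16: filterByExpr (17995 genes), TMM scaling, a mean per group over all 12 libraries, a robust quasi-likelihood fit (common biological coefficient of variation 0.09), and two-sided tests adjusted by Benjamini-Hochberg at 0.05. Mean log2 CPM used a prior count of 2. Python 3.11.15 with pandas 2.3.3, scipy 1.17.1 and matplotlib 3.10.9 made the summaries. The fits were tested on simulated data. The 49 gene lists and the members were chosen with earlier results of these data known; 1153 of 1156 list entries matched. The naming rule took all genes past the test, up to 12 further genes in each direction, up to 5 members a list and the Notch and Htr3 genes; further members of the choroid plexus, meningeal and pineal lists, the untested pineal genes and Aanat, Asmt, Calml4, Kcne2, Cngb1 and Cdhr1 were chosen after their values were seen. Alternatives were limma-voom (limma 3.58.1), DESeq2 1.42.0, other size factors and filters, the 6 knockout libraries alone, a term for libraries lacking Xist, the replicate number as a block, and each library left out. Offsets for GC content and length (17678 genes) and leaving out both libraries lacking Xist were chosen after seeing the data. Some genes are not reported here.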

Additional observations from a re-analysis of the deposited data

How the results depend on the processing

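The 10 genes past the test in knockout (3 higher, 7 lower) became 391 with no count filter, 193 by DESeq2's Wald test, 3 by limma-voom, 38 in a fit of the 6 knockout libraries alone and 2 with a term for libraries lacking Xist. They became 2 to 10 with 1 library left out. Chosen after seeing the data, offsets for GC content, for GC content with the replicate block, and for GC content and length each left 1, and leaving out both libraries lacking Xist gave 14. Same-numbered exposed and unexposed knockout libraries did not deviate together (correlations -0.25, -0.13 and -0.15). The main fit did not pair libraries by number, and so few correlations cannot settle whether the numbers mark a shared origin. The replicate block gave 6 genes in knockout, 115 in wildtype and 0 for the interaction. The 161 genes in wildtype became 14 to 155 with 1 library left out, 69 with the term for Xist, 40 without both libraries lacking it and 81 with the offset for GC content and length. The interaction gave 5 genes with no count filter, 0 to 1 with 1 library left out and 4 without both libraries lacking Xist. No result changed sign past a threshold in these settings, and beyond what fewer libraries or genes bring the cause was not tested. At these depths genes such as Rbp3 and Tph1 rest on at most 60 counts a library.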

Other observations

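No gene of the immune and cholesterol lists passed the test. Of 26 genes of interferon response and antigen presentation 18 had positive log2 fold changes in exposed against unexposed knockout (median 0.15), and 5 lay wholly above (9.88% of all tested genes did). The median was 0.10 without unexposed knockout replicate 2 and 0.09 without exposed knockout replicate 2. The class II antigen chain gene H2-Aa was at 5.51, 3.69 and 4.05 CPM in exposed and 2.31, 2.61 and 2.57 CPM in unexposed knockout (edgeR adjusted p = 0.0854), and H2-Ab1 at 4.72, 5.08 and 4.53 CPM in exposed and 3.02, 2.57 and 3.89 CPM in unexposed knockout (0.142). Of 24 cholesterol synthesis and uptake genes 17 were positive (median 0.10) and 10 lay wholly above (9.88% of all tested genes did).

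Activity-regulated genes had mostly positive values in both genotypes. Of 27 immediate early genes 18 were positive in knockout (median 0.11) and 22 in wildtype (median 0.31). Fos was at 17.0, 19.8 and 12.7 CPM in exposed and 10.8, 11.7 and 10.5 CPM in unexposed knockout (edgeR adjusted p = 0.188). Per1, which is also a clock gene, was at 85.6, 86.0 and 82.2 CPM in exposed and 68.3, 73.1 and 64.0 CPM in unexposed knockout (0.118). The median of the list in knockout was 0.02 without exposed knockout replicate 2 and 0.19 without exposed knockout replicate 3.

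The potassium channel genes Kcna4 and Kcnk10 had opposite signs without overlap. Kcna4 was at 12.8, 13.1 and 13.7 CPM in exposed and 20.8, 17.9 and 18.2 CPM in unexposed knockout, and Kcnk10 at 6.19, 6.57 and 6.95 CPM in exposed and 3.91, 4.55 and 4.66 CPM in unexposed knockout. Their edgeR adjusted p was 0.0627 and 0.085.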
